A study of Mus musculus with 18 samples.

Results

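The early response of primary mouse hepatocytes to interleukin-6 (IL-6) was measured by setting the 4 arrays with IL-6 alone against the 2 untreated controls at 0 and 4 h. The 6 arrays, of 18 in the series, were chosen by the stimulus and time in the sample titles. Primary hepatocytes are the parenchymal cells of the liver, freed by perfusion and plated in culture. IL-6 was present at 40 ng/ml from 0 h, and 1 array each was made at 1, 2, 3 and 4 h. The controls were cultured without IL-6, with 1 array each at 0 and 4 h. In both groups the cells came from male C57BL/6N mice aged 8 to 12 weeks, from 1 animal or a pool of up to 3, and were grown below confluence on collagen I. Both groups had been kept in serum-free medium with 100 nM dexamethasone, a synthetic glucocorticoid, and then in starvation medium without it before 0 h. Each condition and hour had a single array, so the hours serve as replicates and their spread also holds any change with time. Whether the dishes were from different animals is not stated, and the p-values therefore refer to the variation among these dishes alone. No scan date or other batch is given in the sources used here.

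IL-6 binds its receptor together with the shared chain gp130, and the Janus kinases held by gp130 phosphorylate the transcription factor STAT3. In the liver this pathway drives the acute-phase response, in which hepatocytes make fibrinogen, serum amyloid A, hepcidin and other plasma proteins. SOCS3, itself made from a STAT3 target gene, binds gp130 and its kinases and shuts the signal down. STAT3 dimers bind palindromic DNA elements with the letters TTCNNNGAA.

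The stretches of promoter below belong to genes with the largest positive differences or to the fibrinogen genes Fga and Fgb. Only genes that hold that element within the 250 bases before an annotated start are shown. Of 8 genes with a promoter among the 12 largest positive differences, 4 held it. The third fibrinogen gene, Fgg, was not among the genes with a match. The element reads the same on both strands, was searched as exact letters, and its fixed letters TTC and GAA are in capitals. Sequences and starts are those of RefSeq on build GRCm38.p6, written 5′ to 3′ on the strand of the gene.
Socs3 (chr11:117969367-117969616, minus strand, the whole 250 bases before the start): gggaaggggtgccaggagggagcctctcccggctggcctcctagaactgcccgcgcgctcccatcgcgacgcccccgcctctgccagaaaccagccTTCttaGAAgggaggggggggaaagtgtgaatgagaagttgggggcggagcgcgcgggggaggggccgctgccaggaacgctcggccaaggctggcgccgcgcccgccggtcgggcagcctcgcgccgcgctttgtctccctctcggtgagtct
Gcnt2 (chr13:40886508-40886563, plus strand): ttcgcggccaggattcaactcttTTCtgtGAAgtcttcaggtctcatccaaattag
Steap4 (chr5:7960332-7960388, plus strand): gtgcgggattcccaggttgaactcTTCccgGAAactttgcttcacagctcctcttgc
Hamp (chr7:30944094-30944150, minus strand): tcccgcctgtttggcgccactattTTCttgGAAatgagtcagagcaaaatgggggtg
Fga (chr3:83025903-83025951, plus strand): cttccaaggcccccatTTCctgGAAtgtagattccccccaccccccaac
Fgb (chr3:83049993-83050049, minus strand): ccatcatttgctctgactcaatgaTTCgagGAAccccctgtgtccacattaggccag
The first base of the element lay at position -154 from the start of Socs3, -227 from 1 of the starts of Gcnt2, -116 for Steap4, -97 for Hamp, -234 for Fga and -162 for Fgb. Of 32851 promoters of this length in the table, 2306 (7.02%) held the element, and of the 14452 measured genes with a promoter there 1073 (7.4%) did. Of the 3 genes past the threshold with a promoter in the table (Socs3, Gcnt2 and Efna1) 2 held it, and no match was found before either start of Efna1. A match is a description of the letters and not a binding site.

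The values were log2 signals of 18193 genes, so a difference of 1 is a doubling, and no sequencing depth applies. Median signals of the 6 arrays lay between 6.64 and 6.68. Correlations over genes were 0.997 to 0.998 among the 4 IL-6 arrays, 0.9965 between IL-6 and control at 4 h and 0.9949 between the controls at 0 and 4 h. The median absolute difference between IL-6 and control means was 0.072. Between single arrays it was 0.119 for IL-6 minus control at 4 h and 0.151 for the control at 4 h minus that at 0 h. Averaging over arrays lowers such a value, so 0.072 is not to be set against the other 2. The cells carried hepatocyte markers: 14 markers were measured, and the albumin gene Alb lay at 14.84 to 14.87 on all 6 arrays. The summed linear signal of the 14 was 138529 to 141320 with IL-6 and 133363 to 137130 in control. The list includes the fibrinogen gene Fgb, which had its largest difference (0.41). The mean log2 signal of the markers lay 0.17, 0.03, 0.02 and -0.08 from the control mean with IL-6 at 1, 2, 3 and 4 h. In control at 0 and 4 h it lay 0.08 and -0.08 from that mean, so the groups overlapped. No difference in hepatocyte content is read from the sums. Throughout, IL-6 values are given in the order 1, 2, 3 and 4 h, and control values in the order 0 and 4 h.

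The 4 genes that rose with IL-6 past the threshold, an adjusted p of 0.05 in limma over all genes, were Socs3, Cebpd, Gcnt2 and Efna1. These 4 are 0.022% of the genes tested, and 0 genes (0%) were lower. At an unadjusted p under 0.05 limma had 493 genes higher and 642 lower, 1135 in all where chance alone would give 910. Under other settings this count ran from 656 in a fit of 17 arrays to 2567 against all 5 controls. No excess over chance is therefore read from it. The limma fit of the 6 arrays was also run on simulated data, with 50 genes changed at each size. It recovered 64% of changes of 0.5 and 100% of changes of 1, 2 and 3 log2 units. In the data 10 genes had a difference of 1 or more and 6 of them did not pass, so the simulated recovery does not show that changes of this size were all called.

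Socs3, the feedback inhibitor of gp130 signalling, measured 11.09, 10.80, 10.89 and 10.69 with IL-6 and 7.60 and 7.12 in control. It was highest at 1 h, and the lowest IL-6 array lay 3.09 log2 units above the higher control. The mean difference was 3.51 ± 0.15 (SE, limma adjusted p = 1.21e-04), an 11.4-fold rise. Cebpd encodes C/EBP-delta, a transcription factor of acute-phase genes. Its values were 10.98, 11.52, 11.34 and 11.08 with IL-6, against 8.69 and 8.26 in control. It was highest at 2 h, with no overlap, and differed by 2.76 ± 0.17 (SE, limma adjusted p = 0.00112).

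Gcnt2 encodes a glycosyltransferase that adds branches to poly-N-acetyllactosamine chains, as in the blood group I antigen. It measured 10.23, 10.38, 10.47 and 10.40 with IL-6, and 8.83 and 9.10 in control. The 4 IL-6 arrays were close together and all above control, with a difference of 1.40 ± 0.11 (SE, limma adjusted p = 0.00359). Efna1 encodes ephrin-A1, a membrane-anchored ligand of Eph receptor tyrosine kinases. Its values were 9.19, 9.22, 9.49 and 9.48 with IL-6 and 8.19 and 8.13 in control. The groups did not overlap and the difference was 1.19 ± 0.11 (SE, limma adjusted p = 0.015). Efna1 missed the threshold without any 1 of the arrays other than IL-6 at 1 h: the adjusted p was 0.0643 without IL-6 at 2 h, 0.0641 without 3 h, 0.0623 without 4 h, 0.059 without control at 0 h and 0.287 without control at 4 h. Without the control at 0 h limma called 18 genes higher and 3 lower, with Socs3, Cebpd and Gcnt2 among them.

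**Figure D1:**
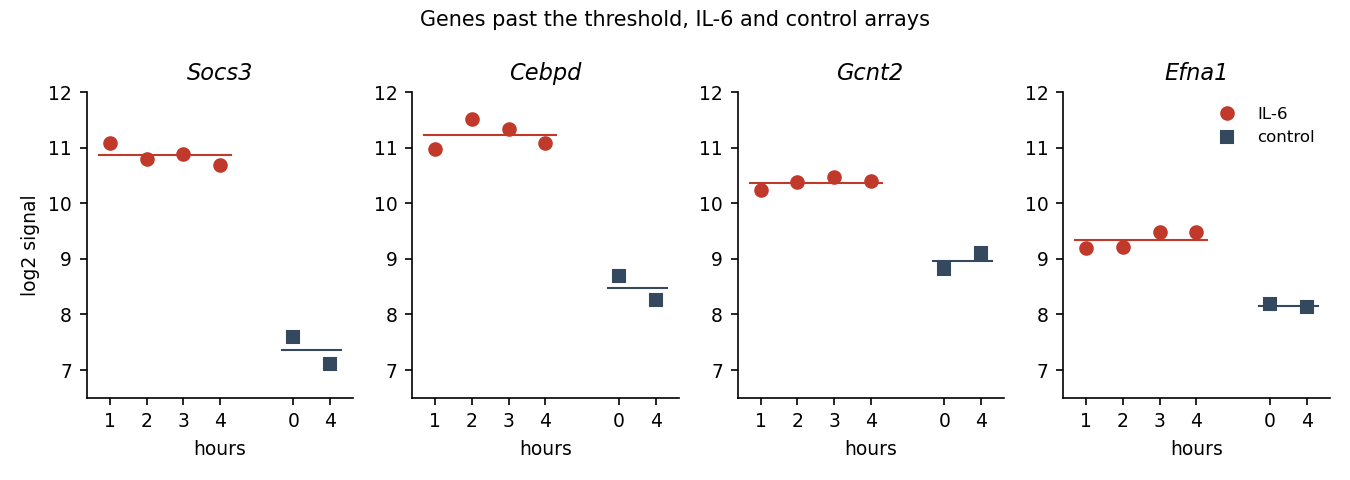
Log2 signal of the 4 genes past the threshold on each array, with IL-6 at 1 to 4 h (circles) left of control at 0 and 4 h (squares), and group means as lines. In each panel all 4 IL-6 arrays lie above both controls, by the widest margin for Socs3 (means 10.87 and 7.36).

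Other probe sets of these genes, short groups of probes against another stretch of the transcript, bear on the size of the differences. The 2 other Socs3 probe sets differed by 3.49 and 2.76, and the other Efna1 probe set by 1.27. All 7 other Gcnt2 probe sets had positive differences, between 0.15 for a dim one (mean 3.00 with IL-6) and 1.68. The other Cebpd probe set, with a mean of 6.10 with IL-6 and 5.70 in control, differed by 0.40.

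The later arrays of the series place these levels in time, though they cannot separate HGF from longer IL-6 exposure. Over the 8 arrays with IL-6 plus HGF at 5 to 24 h, Socs3 lay between 9.45 and 11.04, against 7.47, 7.28 and 7.23 in control at 8, 12 and 24 h. Cebpd lay between 10.05 and 10.94, against 8.26, 8.40 and 8.57 in those controls. Gcnt2 lay between 10.30 and 10.59, against 9.07, 9.10 and 9.20, and Efna1 between 9.12 and 9.80, against 8.37, 8.58 and 8.56. For each of the 4 genes, no array with IL-6 plus HGF reached down to the level of a control at 8 to 24 h.

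Below the threshold, genes were described by whether all 4 IL-6 arrays lay above or below both controls. This held for 1143 genes above (6.28% of all genes) and 1422 below (7.82%), and the median difference over all genes was -0.009. Shares of a gene list are read against these figures. The lists were chosen with earlier results of these data known and are described without a test.

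The receptor and its proximal signalling genes made up a list of 20 measured genes, of which 0 passed, 4 lay above and 3 below both controls, with a median difference of 0.056. Il6ra, the ligand-binding IL-6 receptor chain, differed by 0.10, Il6st, which encodes gp130, by 0.06 and the kinase gene Jak1 by -0.11. The members with the largest differences were other receptor chains and the transcription factor itself. Osmr, a partner chain of gp130 for oncostatin M, measured 8.96, 9.17, 9.42 and 9.56 with IL-6 and 8.46 and 8.79 in control, a difference of 0.65 (limma adjusted p = 0.612). Stat3 measured 10.47, 10.54, 10.82 and 10.89 with IL-6 and 10.10 and 10.23 in control, a difference of 0.52 (0.606). Both were highest at 4 h and lay above both controls on every IL-6 array. Il4ra, the IL-4 receptor alpha chain, differed by 0.55 and Gab1, a docking adaptor of the gp130 and Met pathways, by -0.26.

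All 8 SOCS family genes, which encode inhibitors of cytokine receptors, were measured. Socs3 alone passed, 4 lay above both controls and 0 below, and the median difference was 0.241 (0.119 without the control at 0 h). The other 3 above were Cish, Socs5 and Socs7, named here after their values were seen, with differences of 0.88, 0.39 and 0.16. Cish measured 9.73, 9.35, 9.21 and 9.13 with IL-6 and 8.70 and 8.24 in control, so that the level was highest at 1 h, and passed with hours as covariate. Socs2 and Socs6 differed by 0.32 and 0.16 with overlapping groups. Socs1 (-0.09) and Socs4 (-0.13) also overlapped, and the sign of both turned under other settings.

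Of 30 measured early target genes of STAT3, 2 passed (Socs3 and Cebpd), 16 lay above both controls and 0 below. Their median difference was 0.411, against -0.009 over all genes, and 28 of 30 differences were positive. Junb encodes an AP-1 transcription factor and measured 9.98, 9.69, 9.63 and 9.65 with IL-6, against 9.15 and 8.41 in control. Bcl3, a nuclear partner of NF-kB subunits, measured 10.05, 10.45, 10.70 and 10.71 with IL-6 and 9.80 and 9.55 in control. Junb was highest at 1 h and Bcl3 at 4 h, with differences of 0.96 (limma adjusted p = 0.357) and 0.81 (0.480), and Junb passed with hours as covariate and without the control at 0 h. Cebpb, the other C/EBP factor of the acute phase, differed by 0.72 (0.132), the protease inhibitor gene Timp1 by 0.85 (0.292) and the kinase gene Pim3 by 0.70 (0.292). Of 14 members above both controls that had a promoter in the table, 2 held the element, Socs3 and Icam1 (14.3%, against 7.4% of all measured genes with a promoter). Socs3 was already counted among the genes past the threshold, and 2 of 14 does not set these members apart from other genes.

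Immediate early genes and feedback genes of the ERK cascade numbered 43, with 0 past the threshold, 11 above and 4 below both controls and a median of 0.141 (0.071 without the control at 4 h). Egr1, a zinc finger factor induced within minutes of many stimuli, measured 12.29, 11.04, 11.08 and 11.37 with IL-6 and 10.39 and 10.84 in control. Atf3, a stress-induced factor, measured 10.58, 9.42, 8.91 and 9.37 with IL-6 and 8.62 and 8.79 in control. For both genes the array at 1 h stood well above the other 3 IL-6 arrays, which lay nearer to the controls. Dusp4, a phosphatase gene that dampens MAP kinases, differed by -0.60, with 6.42, 5.98, 5.84 and 5.87 with IL-6 and 6.52 and 6.74 in control.

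**Figure D2:**
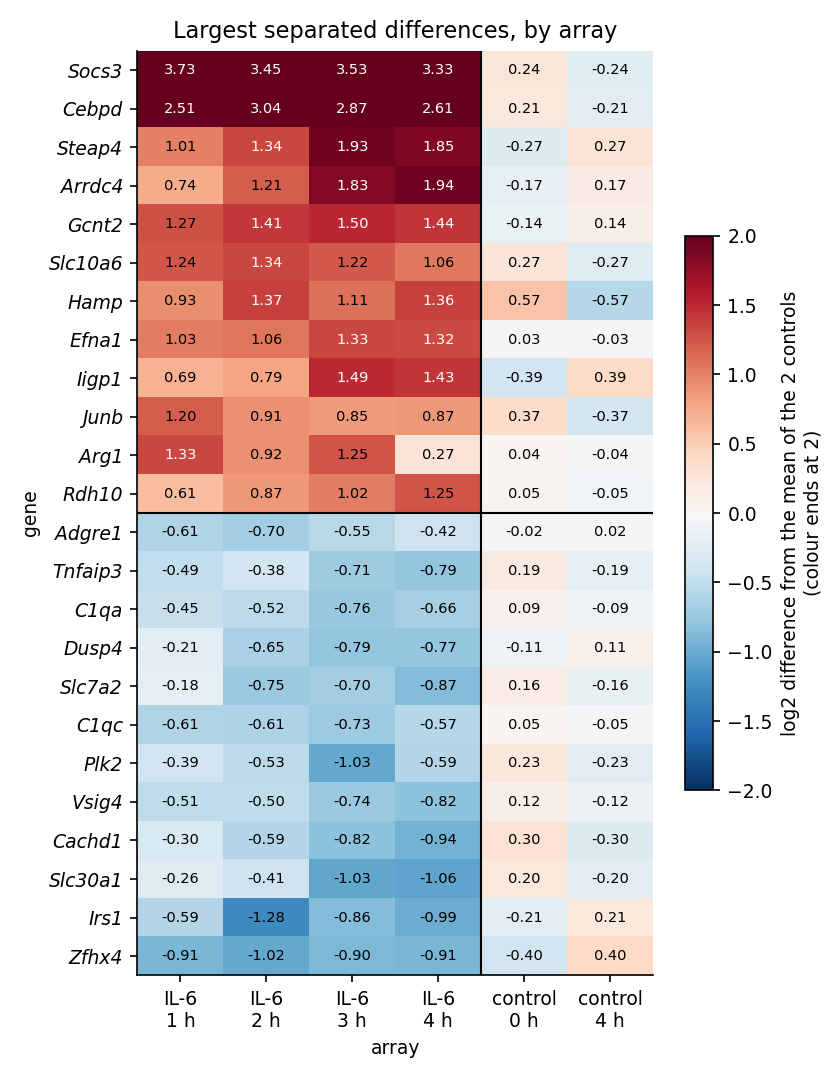
Log2 difference of each array from the mean of the 2 controls for the 12 largest positive (top) and 12 largest negative (bottom) differences among separated genes, with IL-6 at 1 to 4 h left of control at 0 and 4 h. Steap4, Arrdc4 and Iigp1 show larger differences at 3 and 4 h than at 1 and 2 h, Arg1 has its smallest difference at 4 h (0.27), and only Socs3 and Cebpd exceed the colour range of 2.

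Positive acute-phase genes, those whose plasma proteins increase in inflammation, gave a divided picture. Of 38 measured genes 0 passed, 8 lay above and 5 below both controls, and the median difference was 0.036. The median was 0.364 against all 5 controls from 0 to 24 h, with 31 of 38 differences positive, and 0.124 without the control at 0 h. The fibrinogen genes encode the 3 chains of the clotting protein and all lay above both controls. Fga measured 13.58, 13.79, 13.93 and 13.97 with IL-6 and 13.15 and 13.08 in control, a difference of 0.70 (limma adjusted p = 0.278). Fgg differed by 0.60 (0.514) and Fgb by 0.41 (0.612), and like Fga both were highest at 4 h. Steap4, a metalloreductase that reduces iron and copper, measured 10.51, 10.84, 11.43 and 11.36 with IL-6 and 9.23 and 9.77 in control. Its difference was 1.53 ± 0.26 (SE, limma adjusted p = 0.292), and another probe set gave 1.42. Steap4 passed with hours as covariate.

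Hamp encodes hepcidin, the hormone that limits iron export into plasma. It measured 7.57, 8.01, 7.75 and 8.00 with IL-6 and 7.21 and 6.07 in control, so the controls differed by -1.14 between 0 and 4 h. The mean difference was 1.19 (limma adjusted p = 0.514) and that of the other probe set was 1.52. The zinc importer gene Slc39a14 differed by 0.67 (0.514), and Lrg1 and Lbp, named to complete the 8, by 0.22 and 0.19. Among 6 such genes with a promoter in the table, 4 held the element (Fga, Fgb, Hamp and Steap4), against 7.4% of all measured genes with a promoter.

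The 5 members below both controls, named after their values were seen, were the serum amyloid genes Saa1, Saa2 and Saa3, Lcn2, which encodes the siderophore-binding lipocalin, and Lpin1. Saa1 differed by -0.07 and measured 14.02, 14.03, 14.01 and 14.00 with IL-6 and 14.06 and 14.10 in control. Saa2 differed by -0.07 and Lcn2 by -0.06, while Saa3 differed by -0.39 and Lpin1 by -0.22. The haptoglobin gene Hp differed by 0.05. Saa1, Lcn2, Hp and the fibrinogen genes all lay near the upper end of the scale, which ended at 15.049. This may limit the differences that can be read for any of them, which was not tested. Among 18 negative acute-phase genes 0 passed and 0 lay outside the controls in either direction, with a median of -0.01. Serpina7, which encodes thyroxine-binding globulin, had the largest difference of them, 0.83 (limma adjusted p = 0.834), with 8.83, 9.11, 9.95 and 10.04 with IL-6 and 8.03 and 9.27 in control, so the groups overlapped.

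Other large positive differences were found in genes of diverse function, none past the threshold in the comparison of the 6 arrays. Slc10a6 passed with an intensity trend and robust variance, with hours as covariate, against all 5 controls and without the control at 0 h. Arrdc4 and Rdh10 passed against all 5 controls. Arrdc4, an alpha-arrestin gene, measured 7.00, 7.46, 8.09 and 8.19 with IL-6 and 6.09 and 6.42 in control, with a difference of 1.43 ± 0.31 (SE, limma adjusted p = 0.430), and another probe set gave 0.55. Slc10a6, a transporter of sulfated steroids, measured 7.84, 7.94, 7.82 and 7.66 with IL-6 and 6.86 and 6.33 in control, a difference of 1.22 ± 0.15 (0.0845). Arrdc4 had a larger value at each later hour, while the 4 Slc10a6 values lay close together. Rdh10, which oxidises retinol on the way to retinoic acid, measured 9.89, 10.15, 10.29 and 10.53 with IL-6 and 9.32 and 9.22 in control, a difference of 0.94 (0.278). Arg1, the urea cycle arginase, measured 10.42, 10.01, 10.34 and 9.36 with IL-6 and 9.13 and 9.05 in control, so that the array at 4 h lay close to the controls. On later arrays Arg1 lay between 5.72 and 8.43 with IL-6 plus HGF, and at 9.89, 9.35 and 6.36 in control at 8, 12 and 24 h. Iigp1, an interferon-inducible GTPase gene, differed by 1.10 (0.606), and its control at 4 h was 0.78 above that at 0 h. Il1r1, the IL-1 receptor gene, measured 8.83, 9.13, 9.67 and 9.70 with IL-6 and 8.51 and 8.46 in control, a difference of 0.85 (0.612).

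The largest negative differences were smaller than the positive ones, and 0 genes differed by -1 or less where 10 differed by 1 or more. Irs1, the adaptor that couples the insulin receptor to its kinases, measured 7.87, 7.18, 7.59 and 7.47 with IL-6 and 8.24 and 8.67 in control, a difference of -0.93 ± 0.19 (SE, limma adjusted p = 0.359). On later arrays Irs1 lay between 6.17 and 7.59 with IL-6 plus HGF, against 8.86, 8.25 and 8.90 in control at 8, 12 and 24 h. Zfhx4, a homeobox and zinc finger gene, also differed by -0.93, with IL-6 values of 5.87 to 5.99 and control values of 6.48 and 7.29. The zinc exporter gene Slc30a1 differed by -0.69, the cationic amino acid transporter gene Slc7a2 by -0.63 and the polo-like kinase gene Plk2 by -0.64. Other probe sets of Slc7a2 differed by only -0.14, -0.1 and -0.29, with means of 8.2, 7.66 and 4.94 with IL-6, against 7.77 for the one used. Another probe set gave -0.38 for Slc30a1, and a dim one (mean 4.28 with IL-6) gave 0.02 for Plk2. Slc30a1 measured 8.87, 8.71, 8.09 and 8.06 with IL-6 and 9.33 and 8.92 in control, lower at 3 and 4 h than before. Tnfaip3, an NF-kB feedback inhibitor, differed by -0.59 and the chemokine gene Ccl2 by -0.55. None of the 7 genes with a promoter in the table among the 12 with the largest negative differences held the element. Among the 12 with the largest positive ones 4 of 8 did. These were Socs3, Gcnt2, Steap4 and Hamp, all counted above already, so the 4 add no separate support. The share over all measured genes with a promoter was 7.4%, so 0 of 7 does not set the negative genes apart from other genes.

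Lists of metabolism and of other pathways lay nearer to the values over all genes in the 6 arrays than the early STAT3 targets did, though not all alike. Above both controls lay 18.8% of glycolytic genes, against 6.28% of all genes. Below both lay 20% of G1 genes and 15.4% of interferon response genes, against 7.82% of all genes. These shares rest on 3 or 4 genes each and were not tested. Against all 5 controls the medians were 0.038 for glycolytic (10 positive and 6 negative), -0.264 for G1 and -0.04 for interferon response genes. Among 41 cytochrome P450 and other drug metabolism genes 0 passed, 1 lay above and 0 below both controls, and the median difference was 0.026 (0.35 against all 5 controls). Cyp1a1, which metabolises aromatic compounds, measured 9.22, 8.35, 7.25 and 6.36 with IL-6, against 9.49 and 7.52 in control, so that it was lower at later hours in both conditions. Of 23 genes of gluconeogenesis and glucose handling 1 lay above and 2 below both controls, with a median of -0.06. The member above was Igfbp1, which encodes an IGF-binding protein, with a difference of 0.41. Of 16 glycolytic genes 3 lay above and 0 below, with a median of 0.109; the phosphofructokinase gene Pfkp differed by 0.49. Of 26 genes of fatty acid oxidation 2 lay above and 3 below (median -0.022), among them Angptl4, an inhibitor of lipoprotein lipase, with 0.74, and Cpt1a, the carnitine transferase, with -0.23. Of 26 interferon response genes 0 lay above and 4 below (median -0.087): Stat2 differed by 0.49 and Irf1 by 0.35 with overlapping groups, and Usp18, a brake on interferon receptors, by -0.34. Of 20 cyclin D and G1 genes 1 lay above and 4 below (median -0.074), with Cdk6, a cyclin D kinase, at -0.42. Of 24 genes of the unfolded protein response 1 lay above and 0 below: Xbp1, its transcription factor, differed by 0.49. None of these lists had a member past the threshold.

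The remaining lists were described in the same way. Of 24 C/EBP and other liver transcription factor genes 1 passed (Cebpd), 5 lay above and 1 below both controls, with a median of 0.014. Of 19 ephrin and Eph receptor genes 1 passed (Efna1), 3 lay above and 0 below, with a median of -0.011. Only 6 of the 19 reached the limit for dim genes, a mean signal of 5.84. Among these 6, Efna1 included, the median was 0.044, with 3 differences positive and 3 negative. Most of the family was thus too dim to set Efna1 apart from it. Of 28 chemokine and NF-kB feedback genes 4 lay above and 5 below (median -0.044), with Il1r1 and Tnfaip3 at the extremes. Of 18 genes of iron handling and BMP signalling, the pathway that sets hepcidin, 2 lay above and 2 below (median 0.005), with Hamp and the transferrin receptor gene Tfrc (-0.20) at the extremes. Of 20 glucocorticoid receptor and target genes 2 lay above and 1 below (median 0.033), and of 23 bile acid and transporter genes 1 and 2 (median 0.004), with the canalicular export pump gene Abcc2 at -0.36. No member lay above both controls among 21 genes of cholesterol and fatty acid synthesis, 18 of the circadian clock and 15 of the Bcl2 family, with 1, 1 and 2 below and medians of 0.058, 0.04 and -0.029. The cholesterol and fatty acid list had a median of 0.325 against all 5 controls and -0.115 without the control at 4 h. Of 29 genes of DNA replication and mitosis 1 lay above and 1 below (median -0.06, and -0.64 against all 5 controls), and of 8 nuclear long RNAs 0 lay on either side (median 0.063).

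**Figure D3:**
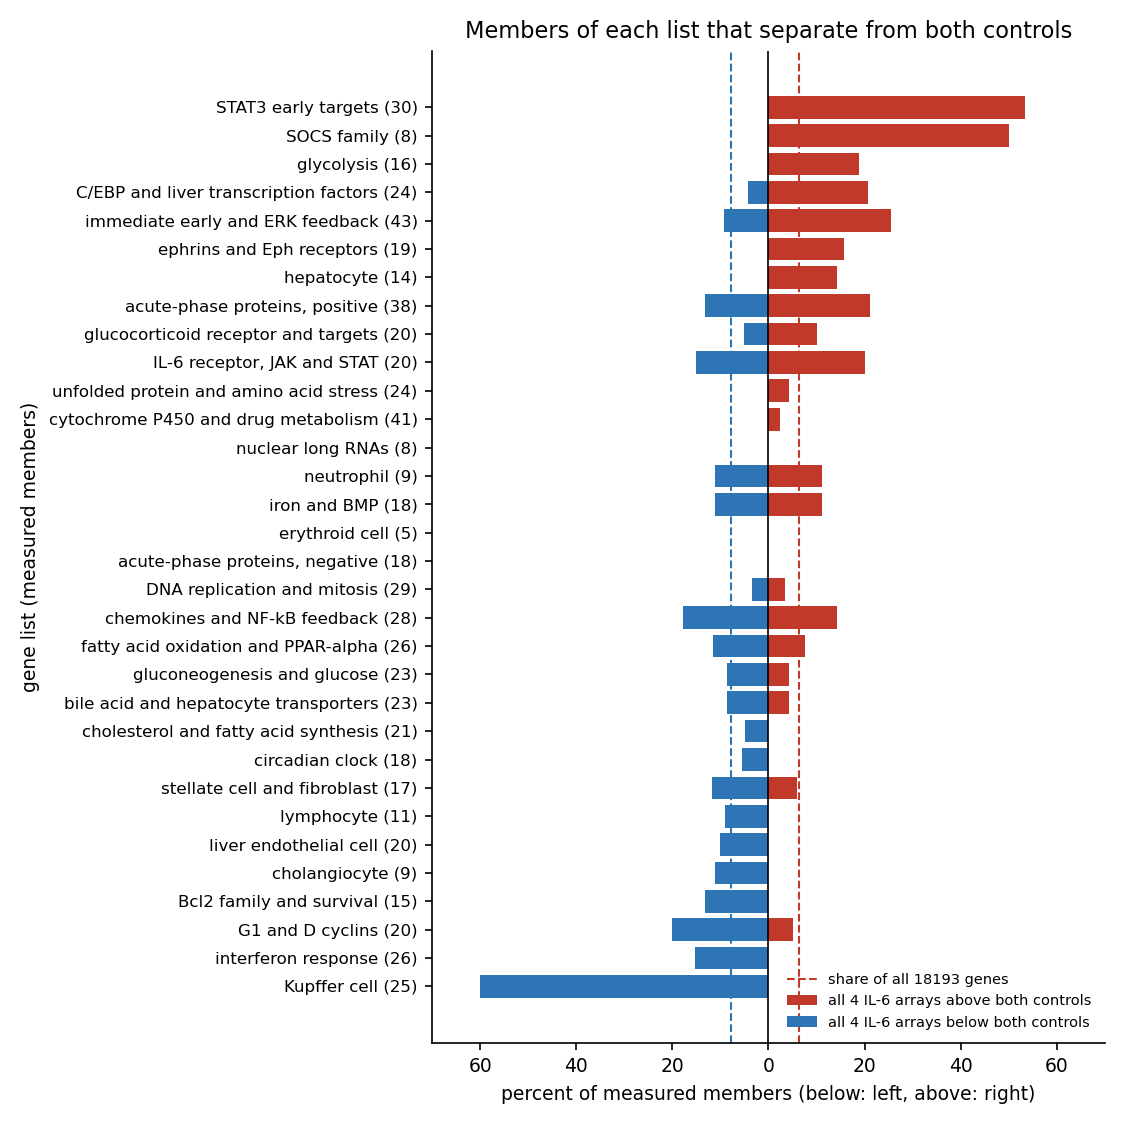
Share of the measured members of each gene list (number in parentheses) whose 4 IL-6 arrays all lay above (right) or below (left) both controls, with the shares over all 18193 genes as dashed lines. Early STAT3 targets (53.3% above), the SOCS family (50% above) and Kupffer cell markers (60% below) stand farthest from the dashed lines at 6.28% and 7.82%. The lists were chosen with earlier results of these data known.

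Markers of Kupffer cells, the macrophages that live in liver sinusoids and can travel with isolated hepatocytes, had mostly negative differences. Of 25 measured markers 0 passed, 0 lay above and 15 below both controls, with a median difference of -0.389 and 22 negative differences. The median was -0.243 with all 5 controls and -0.257 with the control at 0 h left out. C1qc, a chain of complement C1q, measured 6.90, 6.90, 6.78 and 6.94 with IL-6 and 7.56 and 7.47 in control, a difference of -0.63 ± 0.08 (SE, limma adjusted p = 0.118). C1qa differed by -0.60 (0.292), Vsig4, a complement receptor, by -0.64 (0.343; past the threshold against all 5 controls) and Adgre1, which encodes the F4/80 antigen, by -0.57 (0.278). These 4 genes were below both controls at 1 h, which holds by definition for any of the 15 markers counted as below. The mean of all 25 markers lay -0.33, -0.32, -0.40 and -0.32 from the control mean with IL-6, and 0.07 and -0.07 in the controls themselves. Cd163, a haemoglobin scavenger receptor, measured 5.36, 5.09, 4.44 and 4.61 with IL-6 and 6.68 and 4.94 in control, with overlap. Clec4f, a lectin of Kupffer cells, differed by -0.25 with overlap.

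The summed linear signal of the 25 Kupffer markers was 6559, 6825, 6510 and 6915 with IL-6 and 7724 and 7373 in control. In these bulk samples fewer cells of a type and less RNA per cell cannot be told apart, and the part of this shift in the differences of other genes was not tested. On the other arrays the level of C1qc was 6.69 to 7.32 with IL-6 plus HGF, and 7.27, 7.27 and 6.91 in control at 8, 12 and 24 h. Before 0 h, in the control at -5 h, C1qc stood at 6.80, inside the range of the IL-6 arrays. Of 20 liver endothelial markers 0 lay above and 2 below both controls (median -0.056), and of 17 stellate cell and fibroblast markers 1 lay above and 2 below (median -0.052). Lymphocyte, neutrophil, cholangiocyte and erythroid markers each had at most 1 member on either side. The limit for dim genes, a mean signal of 5.84, was reached by few of them. These were 3 of 11 lymphocyte, 1 of 9 neutrophil, 5 of 9 cholangiocyte and 1 of 5 erythroid markers. Such short and mostly dim lists cannot show whether these cell types shared the shift of the Kupffer markers.

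**Figure D4:**
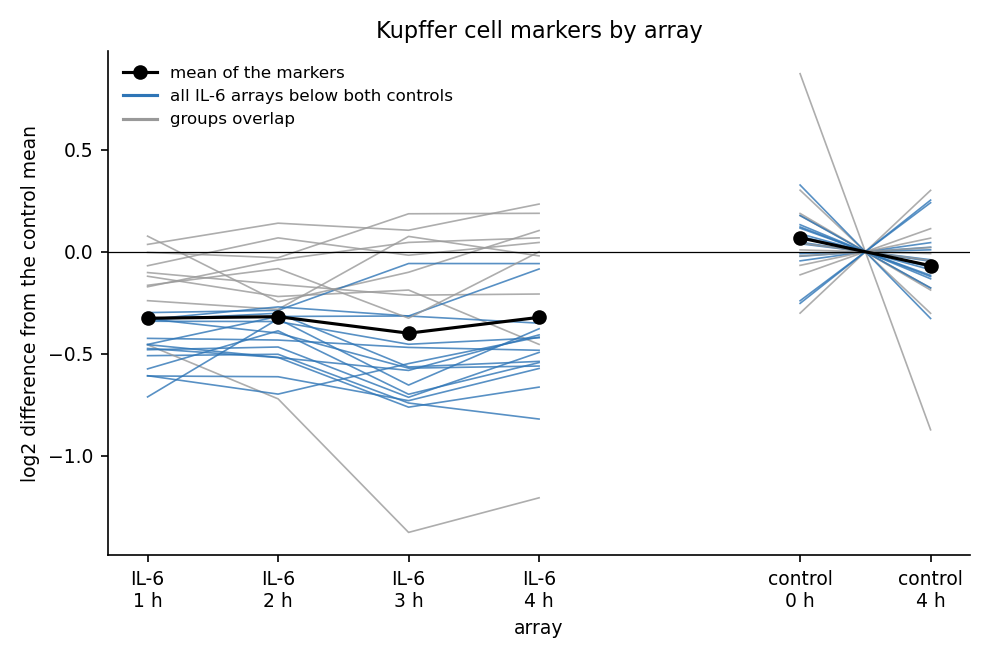
Log2 difference of each of 25 Kupffer cell markers from the mean of the 2 controls, by array, with IL-6 left and control right. The mean of the markers (black) lies between -0.32 and -0.40 on the IL-6 arrays, and the 15 markers in blue are below both controls on every IL-6 array.

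The hour shared by both conditions was 4 h, with 1 array each and hence no test. Of all genes 32 (0.176%) were at least 1 log2 unit higher with IL-6 at 4 h and 9 (0.0495%) at least 1 lower. Between the 2 controls, 27 genes were at least 1 log2 unit higher at 4 h than at 0 h and 40 at least 1 lower. Counts of this size between single arrays thus also arose without IL-6. Socs3 was 11.9-fold, Cebpd 7.05-fold, Gcnt2 2.46-fold and Efna1 2.55-fold higher in this pair. Differences of Arrdc4 (1.77), Hamp (1.93), Steap4 (1.58) and Tgm1 (1.59), a transglutaminase gene, were among the 8 largest, and those of Irs1 (-1.21), Zfhx4 (-1.32), Cyp1a1 (-1.16) and Robo1 (-1.07), an axon guidance receptor gene, among the 8 smallest.

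Both nuclear long RNAs Neat1 and Malat1 were also among the largest differences of the 4 h pair, with 2.22 and 2.03. Neat1 measured 10.52, 10.22, 10.18 and 10.34 with IL-6 and 11.14 and 8.12 in control. Malat1 measured 11.53, 11.36, 11.24 and 11.65 with IL-6, against 11.52 and 9.62 in control. Among these 6 arrays the control at 4 h had the lowest value of both. In control at 8, 12 and 24 h Malat1 measured 9.62, 9.35 and 9.81, and Neat1 measured 8.49, 10.05 and 8.10. The control at 4 h thus lay within or close to the range of the later controls, and the control at 0 h was the highest of all controls, that at -5 h included (11.04 for Malat1 and 9.92 for Neat1). Without the control at 0 h the differences were 1.82 for Malat1 and 2.20 for Neat1, and without that at 4 h -0.08 and -0.83. The part of either control in the other differences was not tested. Socs3, Cebpd and Gcnt2 passed the limma threshold without either one.

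**Figure D5:**
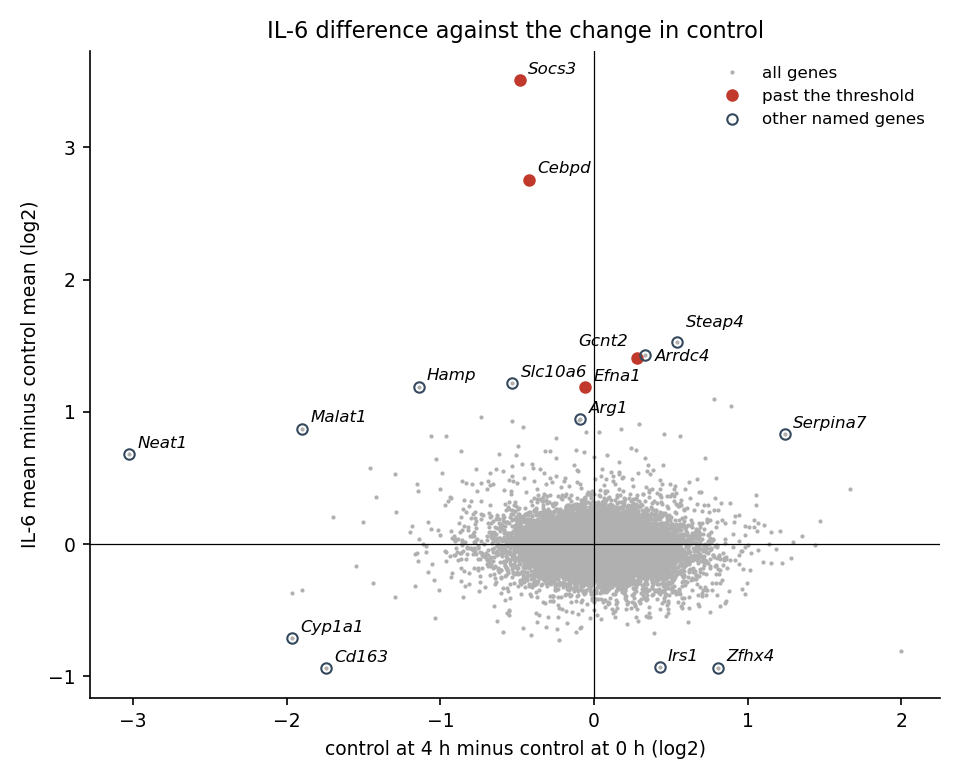
IL-6 mean minus control mean (vertical, log2) against control at 4 h minus control at 0 h (horizontal, log2) for 18193 genes, with the 4 genes past the threshold in red. Socs3 (3.51) and Cebpd (2.76) stand apart at a small control change, while Neat1 and Malat1 lie far to the left, at control changes of -3.03 and -1.90.

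Hour by hour, each IL-6 array was set against the mean of the 2 controls, again without a test. At least 1 log2 unit above lay 15 genes at 1 h (0.0824%), 10 at 2 h (0.055%), 20 at 3 h (0.11%) and 19 at 4 h (0.104%). At least 1 log2 unit below lay 1 gene at 1 h (0.0055%), 2 at 2 h (0.011%), 6 at 3 h (0.033%) and 5 at 4 h (0.0275%). From the control at 0 h to that at 4 h, 27 genes rose and 40 fell by at least 1 log2 unit. Among the 1143 genes above both controls on all IL-6 arrays, 235 were highest at 1 h, 288 at 2 h, 359 at 3 h and 261 at 4 h. Among the 1422 below both, 257 were lowest at 1 h, 403 at 2 h, 443 at 3 h and 319 at 4 h. Each hour was 1 array, so these splits cannot tell the hour from the array and are not read as a time course of IL-6. The named genes fell on different hours in this description: Socs3, Junb, Cish, Egr1, Atf3 and Arg1 were highest at 1 h, Cebpd at 2 h, Gcnt2, Efna1, Steap4 and Iigp1 at 3 h, and Stat3, Osmr, Bcl3, Rdh10, Il1r1 and the 3 fibrinogen genes at 4 h.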

How the data were processed

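RNA of 6 of the 18 samples was compared: 4 with IL-6 and 2 controls. Biotin-labelled RNA was hybridised to one-colour Affymetrix arrays of 45101 probe sets, per the labels' protocols. Signals as deposited were read as log2 from their range (2.095 to 15.049). How the authors summarized and normalized the log2 values is not given in the sources used here. Sorted signals of any array departed by no more than 0.118 from the average of the sorted arrays, and no scaling was added. All columns belonged to a sample (0 left over). The number of arrays limits the precision.

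After 64 control probe sets were set aside, 34945 probe sets had 1 gene symbol, 932 several and 9211 none; 34741 symbols were taken through the Entrez identifier, 204 stayed as annotated and 0 changed. Each gene was represented by its brightest probe set on average over the 18 arrays, which gave 18193 genes, 9010 of which had more than 1. IL-6 and control means were compared by lmFit and eBayes of limma 3.58.1 (R 4.3.3; 4 residual and 4.42 prior degrees of freedom), p-values adjusted by Benjamini-Hochberg across the 18193 genes, threshold 0.05. The fit was tested on simulated data. Pairs at 4 h and hourly values had no test.

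The members, the 32 gene lists (670 symbols, 619 measured), the tests and the naming rule were chosen with earlier results of these data known. The rule took genes past the threshold, the 12 largest differences each way among genes that did not overlap and lay at or above the 40th percentile of mean signal, leading members of each list, the 8 largest differences each way at 4 h and 27 fixed genes, and left out clone names. The text uses fewer. Socs1, Socs2, Socs4, Socs6, Lrg1 and Lbp were added to complete a count, and Icam1 as 1 of 2 genes with the promoter element. Alternatives were quantile normalization, centring on the array median, a filter on dim genes, a robust variance with intensity trend, averaging the probe sets of a gene, a minimum difference of 1 log2 unit, a fit of 17 arrays, hours as covariate, all 5 controls, either control alone for the hourly values, and leaving out each array.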

Additional observations from a re-analysis of the deposited data

Results flagged for a closer look

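Among the 4 IL-6 arrays, 1 array stood far from the other 3 for 3 of 87 genes examined, by the gap to its neighbour over the whole range; chance gives this in about 1 in 20 groups. Zfhx4 was lowest at 2 h, at 5.87 against 5.98 to 5.99 on the other IL-6 arrays. Nr0b2, which encodes the bile acid feedback repressor SHP, was lowest at 4 h, at 5.97 against 6.10 to 6.13. Tfrc, the transferrin receptor gene, was lowest at 3 h, at 10.62 against 10.80 to 10.83. All 4 IL-6 values of Zfhx4, Nr0b2 and Tfrc lay below both controls.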

How the results depend on the processing

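The counts of 4 genes higher and 0 lower in limma were the same under quantile normalization, centring, the dim filter (10916 genes), the mean of all probe sets, the minimum difference and 17 arrays, with the same genes. An intensity trend with robust variance gave 6 higher, with Cebpb and Slc10a6 added, and 0 lower. Hours as covariate gave 8 higher, among them Slc10a6, Steap4, Junb and Cish, and 1 lower. All 5 controls, which include later culture hours, gave 15 higher, among them Slc10a6, Arrdc4, Rdh10, Cebpb, Pim3 and Xbp1, and 2 lower, among them Vsig4. Leaving out 1 array gave 3 to 18 genes higher and 0 to 3 lower; the highest counts came without the control at 0 h, where the lone control is assumed to vary like the IL-6 arrays. The cause was not tested. Without that control Slc10a6, Hamp, Junb, Il4ra, Malat1 and Neat1 were among the genes higher and Zfhx4 among those lower. Against all 5 controls the list medians included -0.64 for DNA replication and mitosis, 0.364 for positive and 0.209 for negative acute-phase genes and 0.21 for hepatocyte markers. The early STAT3 target list kept a positive median, 0.274 to 0.512, with all 5 controls or without either early control. Genes at least 1 log2 unit from control at 1 or more hours numbered 32 above and 10 below. Against the control at 0 h alone they were 43 and 37, and against that at 4 h alone 70 and 29. The 4 h pair gave 30 to 37 genes higher and 6 to 9 lower over its alternatives.

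Over 87 genes and 1303 gene and setting pairs, 1258 kept direction and call, 5 lost the call (all Efna1), 21 gained it and 19 changed sign, none of them among the 4 genes past the threshold. With all 5 controls the differences became 0.18 for Saa1, 0.30 for Saa2, 0.13 for Lcn2, 0.02 for Alb, 0.17 for Igf1, 0.96 for Cyp1a1 and 0.05 for Socs1. Leaving out 1 array, a control at the sign change, gave -0.55 to 0.06 for Clec4f, -0.09 to 0.76 for Pim1, -0.13 to 0.04 for Igf1, -1.69 to 0.28 for Cyp1a1, -0.08 to 1.82 for Malat1, -0.83 to 2.20 for Neat1, -0.87 to 0.11 for Robo1, -0.24 to 0.07 for Socs1 and -0.35 to 0.10 for Socs4. Alb gave 0.00 under quantile normalization and 0.02 when centred, and Socs4 gave 0.03 as the mean of its probe sets. Signal near the ends of the scale may limit what Saa1, Lcn2, Hp, the fibrinogen genes and dim genes can show, which was not tested. No paired analysis was possible because the labels carry no replicate numbers and the conditions share 1 hour only.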
